A study of Mus musculus with 2 samples.

Results

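Among 1878 single cells of day 4 mouse embryoid bodies (EBs), 85 carried the highest combined level of Zfp42, Klf2, Tdh and Utf1, genes of naive pluripotent stem cells, and these 85 cells are described here. They were 4.53% of the EB cells, a share fixed by taking 85 cells and not a measured frequency. A cell was a barcode with at least 6172 unique molecular identifiers (UMIs, each counting 1 captured transcript) and at most 10% of its UMIs on mitochondrial genes. Each cell was scored by the mean over the 4 genes of ln(1 + UMIs per 10000), and the 85 highest were taken. The levels of those 4 genes chose the cells, so they are given as a description only. The comparison is with the other 1793 EB cells of the same library.

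The EB library came from mouse embryonic stem (ES) cells labelled C57BL/6. Per the labels' protocols, the ES cells were kept on mouse embryo fibroblast feeders with 100 units per mL of LIF, a cytokine that sustains self-renewal, and then for 2 days without feeders. They were next seeded at 8000 cells per mL in serum medium and grown as EBs, in conditions said to favour hemangiogenic mesoderm, the source of blood and vessel cells. EBs were dissociated with Accutase, frozen, thawed and sorted for live cells. A yolk sac (YS) library, also C57BL/6, from pooled E9.5 and E10.5 embryos, serves here only as a reference for a few genes. Dead cells and about 70% of the cells with the erythroid marker Ter119 had been sorted out of it. There was 1 library per source. No test between cells was therefore made and no p-value is given. All intervals in brackets are 95% intervals for counting error (for a level the exact Poisson interval, for a share the exact Clopper-Pearson interval, and for a ratio of levels the exact binomial interval given the total) and do not cover differences between cultures.

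Naive pluripotency is the state of the inner cells of the blastocyst and of ES cells in culture. It rests on the core factors Pou5f1, Sox2 and Nanog together with a naive set that includes Esrrb, Klf2, Klf4, Tfcp2l1 and Zfp42 (also called Rex1). On leaving that state, cells lose the naive set first. They then pass through a formative and primed stage, marked by Fgf5, Otx2, Pou3f1 and Dnmt3b, and, under NODAL, WNT and BMP signals, enter the primitive streak, where T, Eomes, Mixl1 and Mesp1 come on. Of the genes that chose the cells, Zfp42 encodes a zinc finger protein, Klf2 a Krüppel-like factor, Tdh the mitochondrial threonine dehydrogenase on which mouse ES cells depend, and Utf1 a chromatin protein of pluripotent cells.

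The 85 cells held 2091624 UMIs in sum, and 6233, 24283 and 46721 UMIs per cell at the lowest, the median and the highest, against a median of 25667 in the other EB cells. They had a median of 4224 genes and 3.44% mitochondrial UMIs, against 4407 genes and 2.83% in the other EB cells. The library held 73915225 UMIs, of which 68.6% fell in cells. Scrublet, a doublet caller, marked 3 of the EB cells at a set rate of 0.8% per 1000 cells, so it had not worked here. Of the 34 EB cells over 60000 UMIs, 0 were among the 85. The EB and YS cells had 2 barcodes in common. Empty droplets, taken as the barcodes of rank 10001 to 50000 by UMI total, show which transcripts were free in the suspension, and their levels are given beside the results they touch.

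Among the 85 cells the score ran from 0.557 at the lowest through a median of 1.03 to 2.70 at the highest. In the other EB cells the median was 0, 73.0% of the cells stood at 0, and the highest was 0.552. No gap marked the limit: the last 5 cells inside scored 0.565 to 0.557 and the first 5 outside 0.552 to 0.544. Zfp42 (chr8:43295063-43306980, minus strand, mm10 throughout) had 262 CPM (UMIs summed over the cells of a group and scaled so that all genes sum to 1000000) in the 85 cells and 5.51 CPM in the other EB cells. Klf2 (chr8:72319033-72321656, plus strand) had 419 CPM in the 85 cells and 4.44 CPM in the other EB cells. Tdh (chr14:63492347-63509092, minus strand) had 264 CPM against 2.18 CPM in the other EB cells, and Utf1 (chr7:139943789-139945112, plus strand) had 441 CPM against 16.3 CPM in the other EB cells. In empty droplets these genes had 15.0, 9.02, 13.6 and 15.3 CPM in the same order. The level in the other EB cells was thus below that in empty droplets for Zfp42, Klf2 and Tdh.

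**Figure D1:**
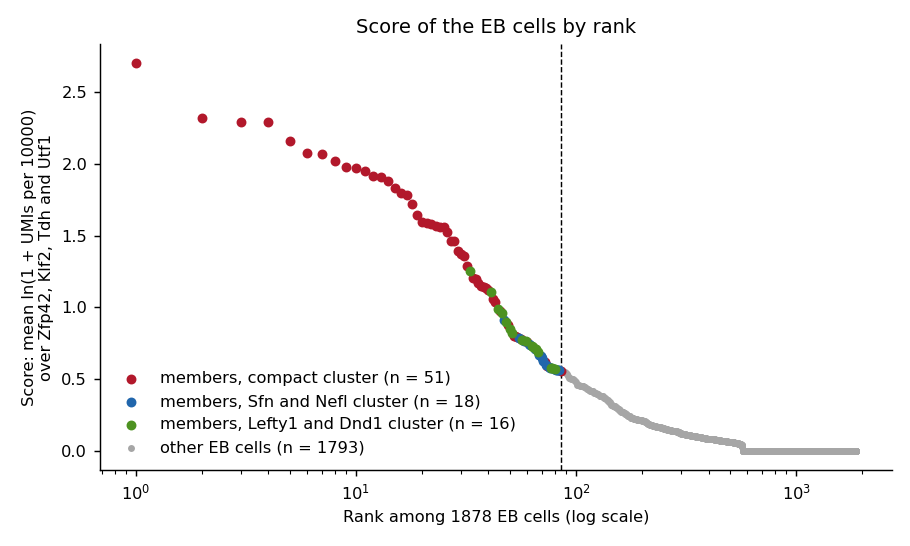
Score of each EB cell (mean over Zfp42, Klf2, Tdh and Utf1 of ln(1 + UMIs per 10000)) against its rank among 1878 cells on a log axis, with the 85 cells coloured by the cluster they fell in and the other EB cells in grey. Cells of the compact cluster take the top ranks, the other clusters' cells stand near the limit at rank 85 (dashed), and the curve has no step there.

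The 85 cells were not 1 population. EB cells were clustered on variable genes with the 4 rule genes left out. Of the 85 cells, 51 fell in a cluster of 57 cells that is called compact here because members of the 85 made up 89.5% of it. A further 18 fell in a cluster of 190 cells led by Sfn and Nefl, and 16 in a cluster of 121 cells led by Lefty1, Sprr2a3 and Dnd1. When the 4 genes were kept in the clustering, the same 51, 18 and 16 cells stayed together. At other settings the 51 cells stayed together, but the 85 cells fell in 4 clusters with seed 2 or at resolution 0.6. They fell in 5 clusters at resolution 1.5 and in 3 with 1000 variable genes. The groups of 18 and 16 cells thus belong to the main setting. The compact cluster was led by Klf2, Rhox6, Zfp42, Tdh, Rhox9, Ftl1, Mt2, Utf1, Mt1 and Dppa5a. This cluster was formed without the 4 rule genes, but it was singled out because most of its cells had been chosen by them. The lead of the 4 rule genes is therefore no check on the cluster. The median score was 1.52 in the 51 compact cluster cells, 0.635 in the 18 Sfn and Nefl cluster cells and 0.769 in the 16 Lefty1 and Dnd1 cluster cells.

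These groups also carried the rule genes unevenly. Zfp42 had 424 CPM in the compact cluster cells, 30.6 CPM in the Sfn and Nefl cluster cells and 14.4 CPM in the Lefty1 and Dnd1 cluster cells, the last no higher than in empty droplets. Tdh had 384, 37.6 and 137 CPM in the same order of groups, and Klf2 568, 101 and 297 CPM. Utf1 alone was alike in the first 2 groups, at 496 and 463 CPM, with 256 CPM in the Lefty1 and Dnd1 cluster cells. These levels chose the cells and do not check the label naive pluripotent-like. Of the naive genes outside the rule, Esrrb, Nr0b1 and Tfcp2l1 had 16.02, 24.8 and 19.2 CPM in the compact cluster cells, against 0.165, 0.185 and 0.514 CPM in the other EB cells, and 0 UMIs in the Sfn and Nefl cluster cells. The label goes against the counts of single cells: that of rank 85, in the compact cluster, had 0 UMIs of Zfp42, Tdh and Sox2 and 72 of Krt18. The 3 groups are therefore called by their cluster. Values for the 85 cells mix the 3 groups, and the groups are given apart wherever they differ.

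The ferritin light chain genes split the compact cluster again, an observation chosen after the values were seen. Ferritin light chain is part of the shell that stores iron in every cell. Its UMIs fell on 2 entries of the count table: Ftl1 (chr7:45457944-45459884, minus strand), which encodes the protein, and Gm10116, a near-identical copy (chr13:74399694-74407346, plus strand; Ftl1-ps1 in GENCODE). The share of UMIs on Ftl1 was either near 0% or near 100% in a cell. At a limit of 50%, 16 of the 85 cells (18.8%, 11.2% to 28.8%) were of the Ftl1 type, with 88.9% to 100% on Ftl1, and the other 69 had 0% to 7.89% there. Each of the 16 lay in the compact cluster, where they were 31.4% of the 51 cells, and 0 of the 34 cells of the other clusters were of that type. Among the other EB cells 11 of 1793 (0.613%, 0.307% to 1.10%) were of the Ftl1 type. By contrast, all 775 YS cells were, although both libraries are labelled C57BL/6. Between 20% and 80% lay 4 EB cells and 0 of the 85.

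The 2 transcripts differ by few bases, so the split of reads between them rests on these. Over 910 aligned bases of the GENCODE M21 transcripts, 906 were identical (99.56%). Of the 4 mismatches, 3 lie within 247 bases of the 3′ end of Ftl1. The pair of coding differences is shown because these single bases (in capitals, with 14 bases on either side, 5′ to 3′ on the transcript's strand) are part of what separates the 2 entries. The Ftl1 windows lie at chr7:45458177-45458205 and chr7:45458141-45458169 on the minus strand, and the copy's windows at chr13:74407057-74407085 and chr13:74407093-74407121 on the plus strand.
Ftl1, first window: ctccgcagggtggcGgggccacaaccagc
Ftl1-ps1, first window: ctccgcagggtggcAgggccacaaccagc
Ftl1, second window: ggcgcgccccagggGtctctgggcgagta
Ftl1-ps1, second window: ggcgcgccccagggAtctctgggcgagta
Levels of either gene are therefore uncertain. What the split reflects was not tested.

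**Figure D2:**
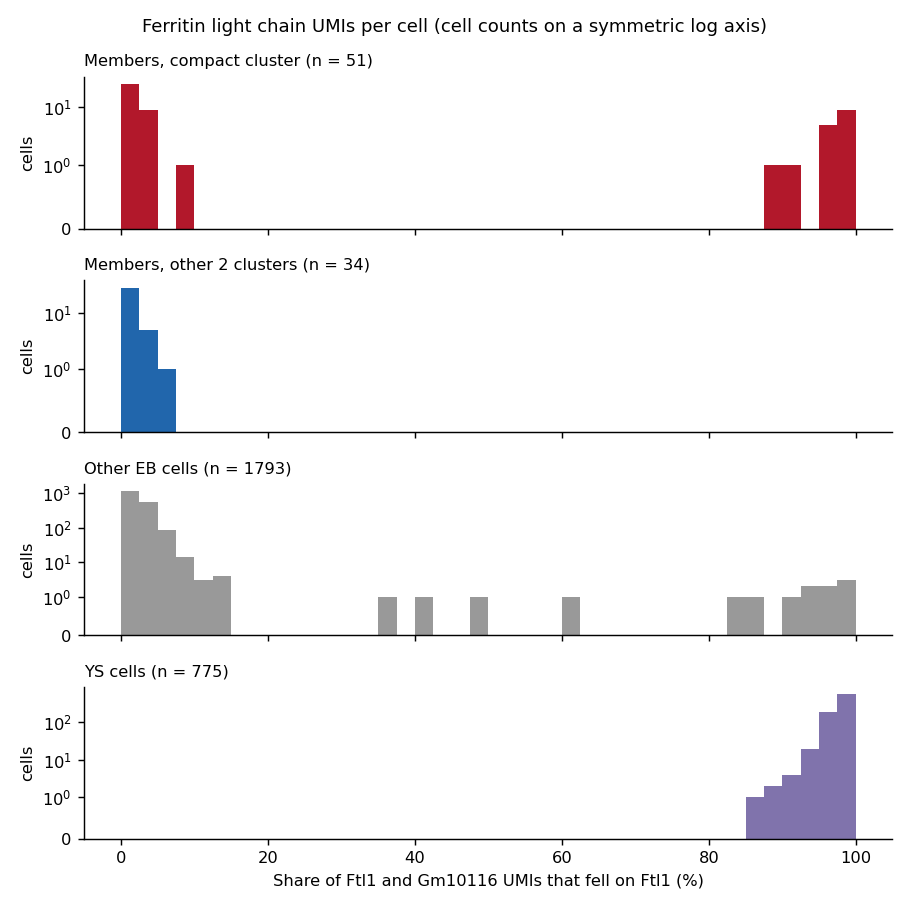
Histograms of the share of Ftl1 and Gm10116 UMIs that fell on Ftl1 in each cell (percent), with cell counts on a symmetric log axis, for the compact cluster cells among the 85, those of the other clusters, the other EB cells and YS cells. In the compact cluster 16 of 51 cells stand near 100%, against 0 of 34 in the other clusters and 11 of 1793 other EB cells, while all 775 YS cells stand at the high end.

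The 16 Ftl1-type cells differed from the 35 other compact cluster cells in more than ferritin. Of the rule genes, whose levels chose the cells, they had more Zfp42 (713 CPM against 308 in the 35 cells), Tdh (694 against 260) and Klf2 (766 against 488). Utf1 went the other way (435 against 520). The naive list outside the rule was mixed, with more Tfcp2l1 (41.8 against 10.1) and less Dppa3 (30.6 against 134). The 16 cells also had less Dppa5a (2972 CPM against 6901) and Dnmt3b (44.6 against 128). Mid1, an X-linked ubiquitin ligase gene, had 8.36 CPM in the 16 cells, where 2 cells held a UMI of it, against 149 CPM in the 35 cells, where 35 did. Nanog (131 against 102 CPM) and Esrrb (16.7 against 15.7 CPM) were near each other. Of 2334 genes with a mean of at least 50 CPM, 55 were at least 2-fold higher and 79 at least 2-fold lower in the Ftl1-type cells. Median depth was 19387 UMIs in the 16 cells and 25339 in the 35. Results that rest on the 16 cells are given with and without them.

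Of the listed genes past the filter, 7 of 12 general pluripotency genes were at least 2-fold higher in the 85 cells and 1 was lower, while 12 of 12 streak genes were lower. The largest ratios of the named genes included Gdf3, Dppa4, Mt2 and Sox2, at 11.1 to 23.0. Of 6639 genes with a mean of at least 10 CPM over the 85 cells and the other EB cells (the rule genes left out), 263 were at least 2-fold higher in the 85 cells (3.96%) and 357 at least 2-fold lower (5.38%). Each of these called ratios had an interval that excluded 1, and the median log2 ratio of all 6639 genes was -0.04. The shares of 3.96% and 5.38% over all genes are the background for each list count below. A gene near 0 in the other EB cells passes the filter only if it is high in the 85 cells, so such genes could not but be called.

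**Figure D3:**
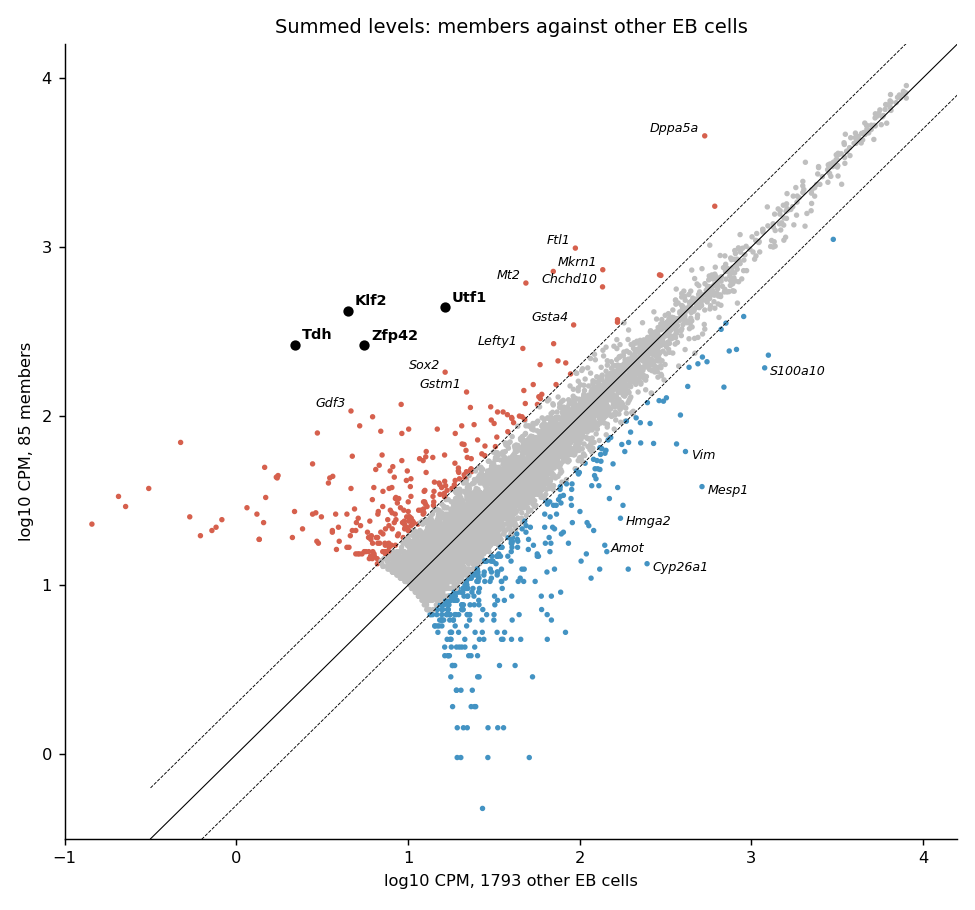
Level of each gene past the filter in the 85 cells (vertical, log10 CPM) against the other EB cells (horizontal, log10 CPM); red genes are at least 2-fold higher, blue at least 2-fold lower, dashed lines mark 2-fold, and the rule genes are black. Dppa5a, Sox2, Gdf3 and the metallothionein gene Mt2 stand above the band, and Cyp26a1, Mesp1, Amot and Vim below it.

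Dppa5a (chr9:78367052-78368177, minus strand), which encodes an RNA-binding protein of pluripotent cells, was high in most of the 85 cells. It had 0 UMIs per 10000 at the lowest, 37.5 at the median and 153 at the highest in the 85 cells, against 0, 1.42 and 174 in the other EB cells. The groups overlapped, since single other EB cells reached the top of the range. In sum it had 4537 CPM in the 85 cells and 534 CPM in the other EB cells, a ratio of 8.49 (8.29 to 8.69). Dppa5a was seen in 94.1% of the 85 cells and in 80.1% of the other EB cells, but also in 78.8% of 85 hemangiogenic cells (those scored highest for Kdr, Etv2, Tal1 and Lmo2; median 25537 UMIs), and empty droplets held 648 CPM. The level in the other EB cells was thus below that in empty droplets. The compact cluster cells had 5772 CPM, the Sfn and Nefl cluster cells 2657 CPM and the Lefty1 and Dnd1 cluster cells 2757 CPM.

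Gdf3 (chr6:122605403-122610087, minus strand), a TGF-beta family ligand made by pluripotent cells, had the largest ratio of the named genes. It had 0, 0.906 and 3.64 UMIs per 10000 in the 85 cells at the lowest, the median and the highest, against 0, 0 and 2.49 in the other EB cells. It was seen in 77.6% of the 85 cells against 6.64% of the other EB cells, and in 40.0% against 1.78% when each cell was thinned to 6000 UMIs. The sum was 107 CPM against 4.65 CPM in the other EB cells (ratio 23.0, 19.06 to 27.8). Like Klf2 and Utf1, Gdf3 was above the other EB cells in each of the 3 groups, with 115 CPM in the compact cluster cells, 65.8 CPM in the Sfn and Nefl cluster cells and 125 CPM in the Lefty1 and Dnd1 cluster cells.

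Dppa4, a nuclear protein of pluripotent cells, had 117 CPM in the 85 cells and 9.12 CPM in the other EB cells (ratio 12.8, 10.9 to 15.1). Sox2, a core factor, had 0, 1.46 and 7.46 UMIs per 10000 in the 85 cells, against 0, 0 and 4.43 in the other EB cells. Its sum was 182 CPM in the 85 cells and 16.4 CPM in the other EB cells (ratio 11.1, 9.75 to 12.5), with 230, 72.9 and 149 CPM in the compact, Sfn and Nefl, and Lefty1 and Dnd1 cluster cells. Both genes were seen in most of the 85 cells and in few of the others: Sox2 in 89.4% against 21.4%, and Dppa4 in 78.8% against 12.9%.

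The metallothionein genes Mt1 and Mt2, whose small proteins bind zinc and copper, were higher too. Mt1 had 0, 4.59 and 47.3 UMIs per 10000 in the 85 cells, against 0, 0 and 51.7 in the other EB cells, so the ranges overlapped in full. The sums were 716 CPM against 70.1 CPM in the other EB cells for Mt1 (ratio 10.2, 9.61 to 10.9) and 611 CPM against 48.6 CPM for Mt2 (ratio 12.6, 11.8 to 13.5). Mt1 was highest in the compact cluster cells (976 CPM), with 202 CPM in the Sfn and Nefl cluster cells and 462 CPM in the Lefty1 and Dnd1 cluster cells. Metallothionein was not particular to them in the series: YS cells had 1628 CPM of Mt1, and the 84 other EB cells scored highest for Fgf5, Pou3f1, Otx2 and Dnmt3b, called the primed set, had 275 CPM.

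The other named genes were higher by smaller ratios. Gstm1 (6.33) and Gsta4 (3.75) encode glutathione transferases, Mkrn1 (5.38) an E3 ubiquitin ligase, Dhx16 (4.87) an RNA helicase of splicing, Chchd10 (4.28) a mitochondrial protein, Ckb (3.80) brain creatine kinase and Slc29a1 (3.74) a nucleoside transporter. Mkrn1 was seen in each of the 85 cells and was alike in the compact (837 CPM) and the Sfn and Nefl cluster cells (832 CPM), with 321 CPM in the Lefty1 and Dnd1 cluster cells and 136 CPM in the other EB cells. Gstm1 was instead highest in the Lefty1 and Dnd1 cluster cells (261 CPM), against 127 CPM in the compact cluster cells. Ftl1 itself had 984 CPM in the 85 cells and 94.3 CPM in the other EB cells (ratio 10.4, 9.90 to 11.0). Without the 16 Ftl1-type cells its log2 ratio was 0.19, under the 2-fold limit, so this difference rests on those cells.

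**Figure D4:**
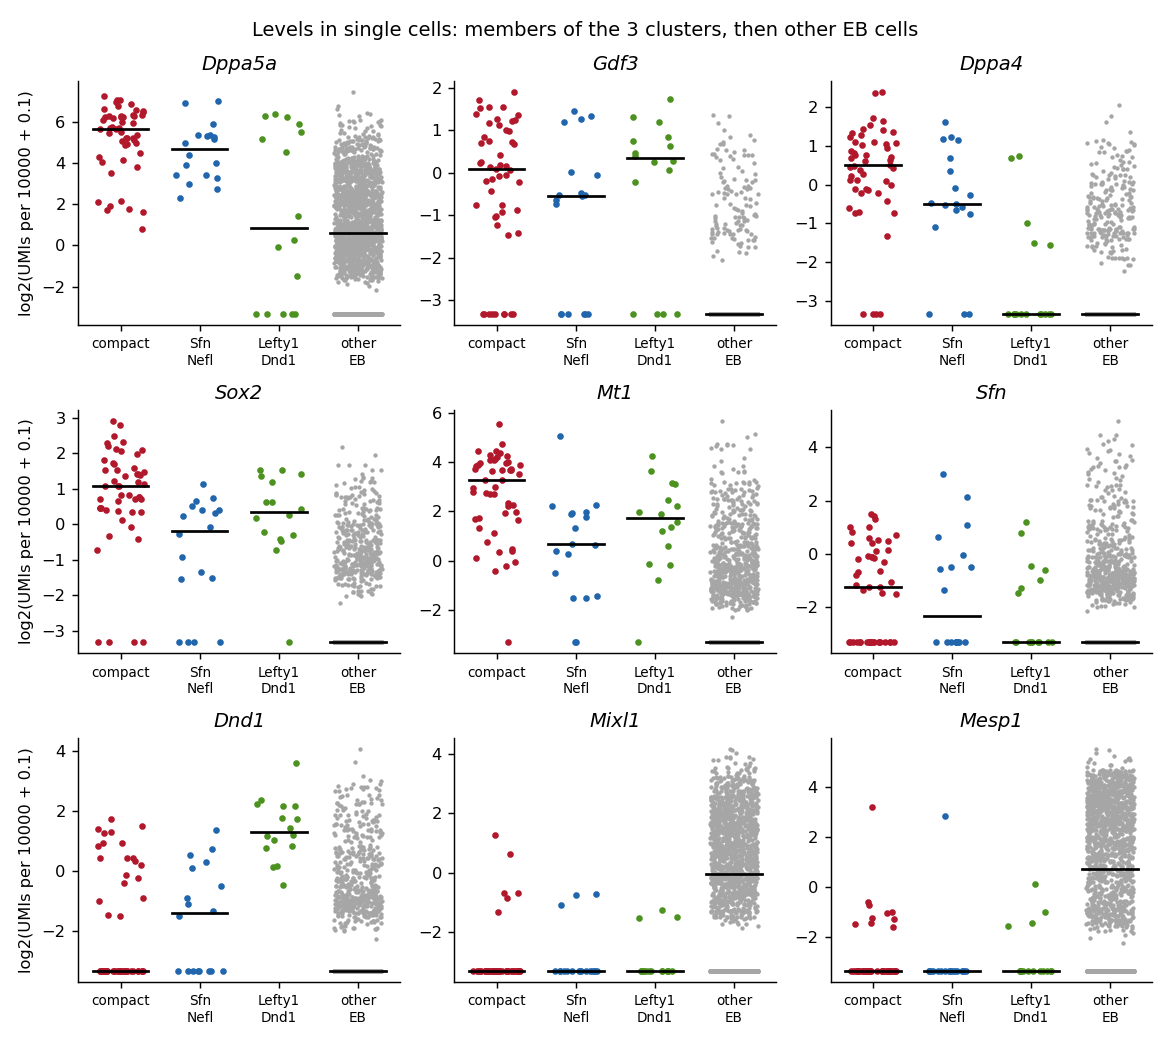
Levels of 9 genes in single cells as log2(UMIs per 10000 + 0.1), one panel per gene, with the compact, Sfn and Nefl, and Lefty1 and Dnd1 cluster cells of the 85 in colour, the other EB cells in grey and medians as bars. Gdf3 and Sox2 are raised in all 3 groups and Mt1 and Dppa4 most in the compact cluster, Dnd1 stands out in the Lefty1 and Dnd1 cluster cells, and Mixl1 and Mesp1 lie at the floor in most of the 85 cells.

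Of 14 naive pluripotency genes listed besides the rule genes, only 5 passed the filter, and 2 of these were at least 2-fold higher and 1 lower in the 85 cells (median log2 ratio 0.97, against -0.04 for all genes). Dppa3 (chr6:122626410-122630272, plus strand; also called Stella), a protein of the egg, the early embryo and germ cells, was the strongest. It had 69.8 CPM in the 85 cells and 0.473 CPM in the other EB cells, a ratio of 147 (94.6 to 240). Since it passed only through the 85 cells, its call was fixed by the filter. It was patchy: its level was 0 at the median of the 85 cells and 13.6 UMIs per 10000 at the highest, and 32.9% of the cells held a UMI, against 0.837% of the other EB cells and 0 of the 85 hemangiogenic cells. Klf5, a Krüppel-like factor, had 46.4 CPM against 19.7 CPM in the other EB cells (ratio 2.35, 1.89 to 2.90). Nanog stood just under the limit, with 93.7 CPM in the 85 cells and 47.9 CPM in the other EB cells (ratio 1.96, 1.68 to 2.26). Tbx3, which serves both naive cells and mesoderm, was lower, with 4.78 CPM against 45.3 CPM in the other EB cells.

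The remaining naive factors were scarce in counts and found mostly in the compact cluster cells. Esrrb, an orphan nuclear receptor, had 24 UMIs in the 85 cells and 8 in the other EB cells (11.5 against 0.165 CPM), and was seen in 22.4% of the 85 cells against 0.390% of the other EB cells. Nr0b1, a nuclear receptor also called Dax1, had 17.2 CPM against 0.185 CPM in the other EB cells (ratio 92.9, 43.9 to 219). Tfcp2l1, a factor downstream of LIF, had 11.5 CPM against 0.514 CPM in the other EB cells (ratio 22.3, 12.2 to 40.7). These 3 genes were each seen in 31.4% to 33.3% of the compact cluster cells and had 0 UMIs in the Sfn and Nefl cluster cells. In the Lefty1 and Dnd1 cluster cells, Esrrb had 9.58 CPM, Nr0b1 12.0 CPM and Tfcp2l1 0 UMIs. Tcl1, a co-activator of AKT kinase, had 25 UMIs in the 85 cells and 2 in the other EB cells (ratio 290, 72.4 to 2530.1). Nr5a2, a nuclear receptor, also had 2 UMIs in the other EB cells, with 9.08 CPM in the 85 cells. Other naive genes did not stand apart in this way. Klf4, a Krüppel-like factor and reprogramming gene, had 8.61 CPM against 3.72 CPM in the other EB cells, with 27.9 CPM in the 16 Ftl1-type cells and 4.50 CPM in the 35 others of the compact cluster. Prdm14 had 7.65 against 4.36 CPM and Gbx2 3.35 against 3.13 CPM in the other EB cells. Summed over the 14 genes, the level was 408 CPM in the compact cluster cells, 172 CPM in the Sfn and Nefl cluster cells, 211 CPM in the Lefty1 and Dnd1 cluster cells and 145 CPM in the other EB cells.

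Of the 12 general pluripotency genes, all of which passed the filter, 7 were at least 2-fold higher and 1 was lower (median log2 ratio 1.35). Besides Sox2, Dppa4 and Dppa5a, the higher ones included Dppa2, the partner of Dppa4 (40.2 against 3.44 CPM), L1td1, an RNA-binding protein (201 against 58.7 CPM), and Mybl2, a cell cycle factor (106 against 33.2 CPM). Dppa2 and Dppa4, under 10 CPM in the other EB cells, passed only through the 85 cells, so their call was largely fixed by the filter. Pou5f1, the POU factor of all pluripotent cells, was seen in each of the 85 cells, with 2.39, 9.56 and 21.5 UMIs per 10000 at the lowest, the median and the highest. In the other EB cells it ran from 0 through 4.39 to 24.4. Its sums were 1024 and 572 CPM (ratio 1.79, 1.71 to 1.87), so Pou5f1 set the 85 cells apart little from their neighbours. Sall4 (83.7 against 127 CPM) and Lin28a (78.9 against 96.5 CPM) were not past the limit in either direction. Tdgf1, the NODAL co-receptor Cripto, was lower, with 326 CPM against 666 CPM in the other EB cells, and differed among the groups: 679 CPM in the Sfn and Nefl cluster cells, 295 CPM in the compact cluster cells and 55.1 CPM in the Lefty1 and Dnd1 cluster cells.

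**Figure D5:**
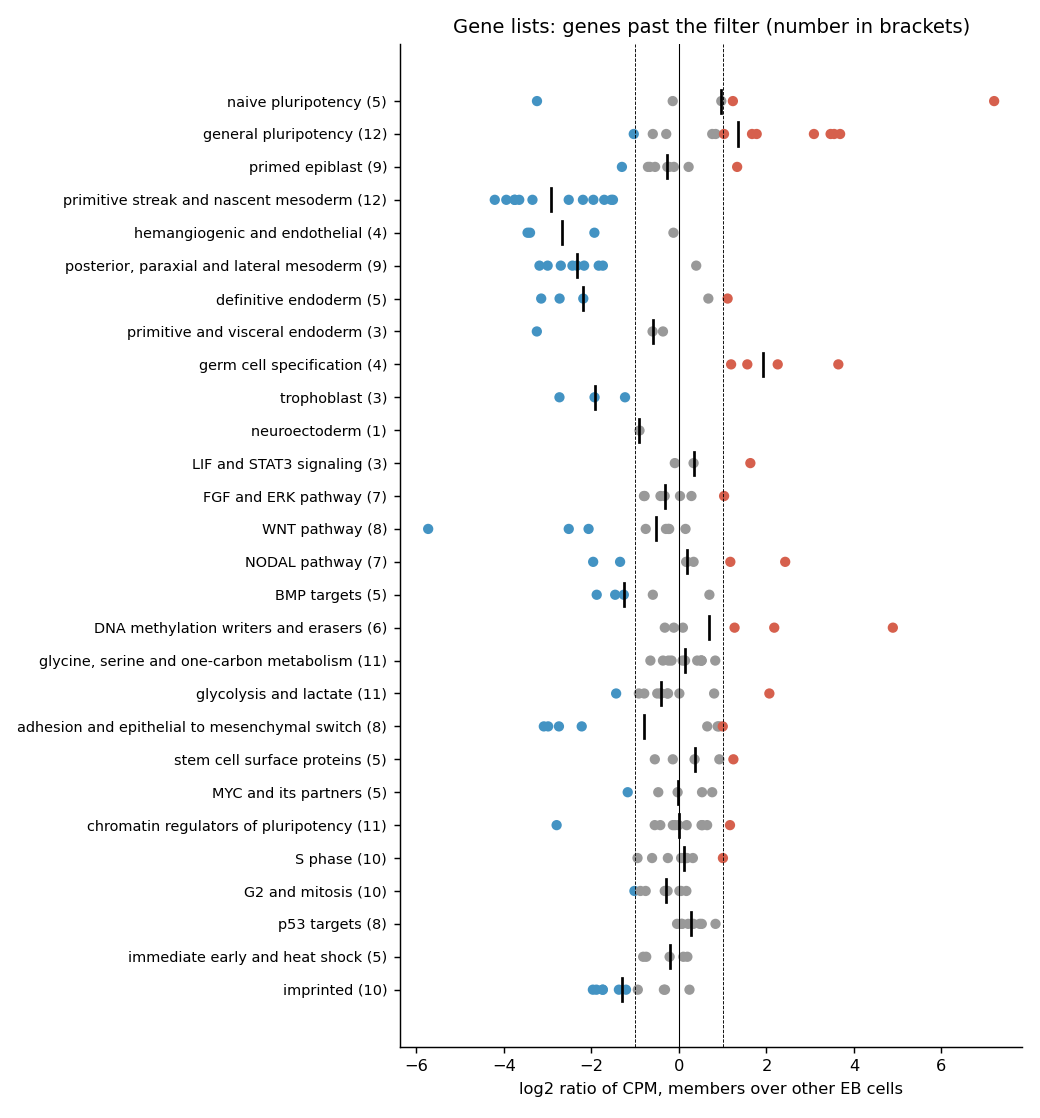
Log2 ratio of CPM, the 85 cells over the other EB cells, for each gene past the filter in each list (number in brackets), with list medians as bars and dashed lines at 2-fold. General pluripotency and germ cell genes lie mostly to the right and streak, mesoderm and trophoblast genes to the left, while one-carbon, S phase and p53 genes lie within or near the 2-fold band.

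Of 12 primed epiblast genes, 9 passed the filter, and 1 was at least 2-fold higher and 1 lower (median log2 ratio -0.27). Pou3f1 (Oct6) was the higher one, with 23.9 CPM against 9.51 CPM in the other EB cells, and its level came from the Sfn and Nefl cluster cells, with 70.5 CPM there, 14.4 CPM in the compact cluster cells and 4.79 CPM in the Lefty1 and Dnd1 cluster cells. The lower one was Tead2, a factor of the HIPPO pathway, with 91.3 against 225 CPM. The same Sfn and Nefl cluster cells held Dnmt3b, the de novo DNA methyltransferase, at 341 CPM (compact 104 CPM, Lefty1 and Dnd1 12.0 CPM) and the kinase gene Pim2 at 259 CPM (40.8 and 4.79 CPM in that order). Summed over the list, these 18 cells had 1164 CPM, the compact cluster cells 361 CPM, the Lefty1 and Dnd1 cluster cells 228 CPM and the other EB cells 700 CPM. The 18 cells had 200 CPM of Tead2 and 30.6 CPM of Sall2, against 221 and 8.13 CPM in the primed set. Of the genes that chose the primed set, Fgf5 had 82.3 CPM in the 18 cells against 363 CPM there. That set is mixed, since it also had the endoderm genes Trh at 1345 CPM and Sox17 at 221 CPM.

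Summed over the list, germ cell genes were highest in the Lefty1 and Dnd1 cluster cells, at 2235 CPM. The compact cluster cells had 645 CPM, the Sfn and Nefl cluster cells 301 CPM and the other EB cells 355 CPM. Dnd1 and Ifitm3 are among the leading genes of that cluster, so their height there follows in part from how it was formed. Kit, Dazl and Ddx4 were below the filter, and Dazl lay mostly in the compact cluster cells, as given in the closing section. Of 8 germ cell specification genes, 4 passed the filter (Ifitm3, Dnd1, Nanos3 and Tfap2c) and were at least 2-fold higher in the 85 cells, against 3.96% of all genes. Nanos3 and Tfap2c, under 10 CPM in the other EB cells, passed only through the 85 cells, so their call was largely fixed by the filter. Ifitm3, a surface marker of early germ cells, had 1.82, 17.8 and 34.9 UMIs per 10000 in the Lefty1 and Dnd1 cluster cells at the lowest, the median and the highest. Its sums were 1741 CPM there, 470 CPM in the compact cluster cells, 247 CPM in the Sfn and Nefl cluster cells and 297 CPM in the other EB cells. Dnd1, an RNA-binding protein that germ cells need to survive, had 314, 59.3, 37.6 and 35.8 CPM in the same order. Nanos3 (47.9 CPM) and Tfap2c (88.6 CPM) were highest in the Lefty1 and Dnd1 cluster cells, but the compact cluster cells had them as well (28.8 and 48.8 CPM), against 2.18 and 9.90 CPM in the other EB cells. Prdm1, the first switch to the germ line in mouse, had 31.1 CPM in the Lefty1 and Dnd1 cluster cells and 4.80 CPM in the compact cluster cells, with 5.49 CPM in the other EB cells.

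The streak list in sum had 850 CPM in the 16 Lefty1 and Dnd1 cluster cells against 1969 CPM in the other EB cells, and the list of posterior, paraxial and lateral mesoderm had 469 CPM against 595 CPM. Within these lists single genes differed. The 16 cells had Fgf8 at 515 CPM and T at 160 CPM, against 426 and 226 CPM in the other EB cells. Cdx2, a posterior homeobox gene, had 208 CPM there, 8.01 CPM in the compact cluster cells, 9.40 CPM in the Sfn and Nefl cluster cells and 36.7 CPM in the other EB cells. The 85 other EB cells scored highest for Prdm1, Tfap2c, Nanos3 and Dnd1 had 1164 CPM of Fgf8, 494 CPM of T and 229 CPM of Cdx2. Of the 85 cells described here, 20 stood among the 85 highest for that germ cell score before they were left out of it.

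Streak genes were lower in the 85 cells. Of 14 listed, 12 passed the filter and all 12 were at least 2-fold lower (median log2 ratio -2.93), while Cdx1 (3.82 against 5.56 CPM) and Tbx6 (1.43 against 9.07 CPM) were below the filter. Mixl1 (chr1:180693043-180697034, minus strand), a homeobox gene of streak cells, had 0, 0 and 2.33 UMIs per 10000 in the 85 cells at the lowest, the median and the highest, against 0, 0.861 and 18.02 in the other EB cells. Its sum was 12.4 CPM against 192 CPM in the other EB cells (ratio 0.0649, 0.0424 to 0.0951). Mesp1 (chr7:79792241-79793788, minus strand), the regulator of nascent mesoderm, had 38.2 CPM against 515 CPM in the other EB cells (ratio 0.0742, 0.0588 to 0.0924). It was seen in 17.6% of the 85 cells against 69.8% of the others, and 43.8% of its UMIs came from 1 compact cluster cell of rank 72. Empty droplets had 176 CPM of Mixl1 and 418 CPM of Mesp1, above the levels in the 85 cells. The T gene had 69.3 CPM against 226 CPM and Eomes 32.5 CPM against 149 CPM in the other EB cells. Summed over the list, the level was 235 CPM in the compact cluster cells, 400 CPM in the Sfn and Nefl cluster cells and 850 CPM in the Lefty1 and Dnd1 cluster cells, against 1969 CPM in the other EB cells.

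Genes of the mesoderm that the culture favours were lower as well. Of 12 hemangiogenic and endothelial genes, 4 passed the filter and 3 were at least 2-fold lower: Kdr, the VEGF receptor gene (6.22 against 68.4 CPM), Etv2, the factor that starts blood and vessel fate (11.0 against 116 CPM), and Lmo2 (14.8 against 56.6 CPM). Egfl7 was the exception, at 65.5 against 71.5 CPM. Fli1 and Sox7 had 0 UMIs in the 85 cells. Of 9 genes of posterior, paraxial and lateral mesoderm past the filter, 8 were at least 2-fold lower, Hand1 among them (15.8 against 144 CPM), and Cdx2 was not past the limit. The named genes of lowest ratio included Cyp26a1, which breaks down retinoic acid (ratio 0.0543, 0.0361 to 0.0785), Pmp22 (0.0951), Amot (0.123), Tgfb1 (0.136), Igfbp4 (0.140), Hmga2 (0.144), Vim (0.149), S100a10 (0.161), Fst (0.166), Rspo3 (0.175) and Phlda2 (0.182). Cyp26a1 was at 0 in the median cell of the 85 and at 1.37 UMIs per 10000 in the median other EB cell.

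Markers of other lineages in the culture were low or mixed. Of the definitive endoderm genes, 5 passed the filter, and Sox17 (2.87 against 25.4 CPM), Hhex and Krt19 were at least 2-fold lower, while Foxa2 had 0 UMIs in the 85 cells. Trh, a hormone gene on the same list, was higher (359 against 166 CPM), in the compact (371 CPM), the Sfn and Nefl (315 CPM) and the Lefty1 and Dnd1 cluster cells (366 CPM) alike. Of 3 primitive and visceral endoderm genes past the filter, Gata4 was lower (1.91 against 18.2 CPM), and the YS endoderm genes Ttr and Apoa1 had 0 UMIs in the 85 cells. The trophoblast list had 3 genes past the filter, Krt8, Krt18 and Gata3, each at least 2-fold lower, and Krt18 had a log2 ratio of -0.99 without the Ftl1-type cells. Of the Krt8 UMIs in the 85 cells 29.7% came from 1 compact cluster cell, that of rank 85. The neuroectoderm list had 1 gene past the filter, Nes (9.56 against 17.9 CPM). Of 10 fibroblast markers, listed because the ES cells had been grown on feeders, 0 passed the filter and 5 were at 0 in the 85 cells, which had 6.22 CPM of the list in sum against 21.3 CPM in the other EB cells. The defining feeder gene Col1a1 had 0 UMIs in the compact cluster cells.

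In the LIF and the FGF list 1 gene each was called, both higher, and in the WNT list 3 were called, all lower. The shares over all genes were 3.96% higher and 5.38% lower. The median log2 ratios of the LIF, FGF and WNT lists were 0.33, -0.33 and -0.53, so a call of 1 gene does not give the direction of its list. Of the LIF and STAT3 genes 3 passed the filter, and Pim1, a kinase gene induced by STAT3, was higher (94.7 against 30.5 CPM, ratio 3.10, 2.66 to 3.60), at 92.9, 111 and 83.8 CPM in the compact, Sfn and Nefl, and Lefty1 and Dnd1 cluster cells. The receptor gene Lifr (6.22 against 12.0 CPM) and Stat3 (8.13 against 9.03 CPM) lay below the filter or near even, and Stat3 had 25.1 CPM in the 16 Ftl1-type cells against 3.37 CPM in the 35 others of the compact cluster. Of 7 FGF and ERK genes, Etv5 was higher (66.0 against 32.3 CPM), and feedback genes such as Spry2 (30.6 against 30.1 CPM) and Dusp6 (36.8 against 64.1 CPM) were not past the limit. Of 8 WNT genes, 3 were lower: the secreted inhibitor Dkk1 (ratio 0.0188, 0.00228 to 0.0681, from 2 UMIs in the 85 cells), Nkd1 and the ligand Rspo3. Axin2, the general WNT target, was near even (20.1 against 23.8 CPM).

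The NODAL pathway was split by role. The ligand gene Nodal was higher (19.6 against 8.68 CPM, ratio 2.26, 1.60 to 3.12), and so was its feedback inhibitor Lefty1 (251 against 46.6 CPM, ratio 5.38, 4.89 to 5.92). Lefty1 was at 0 in the median cell of the 85 and at 32.6 UMIs per 10000 in the highest, with 711 CPM in the Lefty1 and Dnd1, 152 CPM in the compact and 89.3 CPM in the Sfn and Nefl cluster cells. The co-receptor gene Cfc1 was lower (20.1 against 78.1 CPM), and Lefty2 was not past the limit (85.6 against 67.9 CPM). Of 5 BMP target genes past the filter, Id1 (204 against 488 CPM), Smad6 and Bambi (27.3 against 100 CPM) were at least 2-fold lower. Id3, the gene that BMP induces in self-renewing ES cells, was not past the limit (286 against 433 CPM), nor was Id2 (74.1 against 45.7 CPM).

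Genes that set and remove DNA methylation showed 3 of 6 past the filter at least 2-fold higher (3.96% over all genes) and 0 lower (5.38%). Dnmt3l, the catalytically inactive partner of the de novo methyltransferases, had 24.4 CPM against 0.823 CPM in the other EB cells (ratio 29.6, 19.2 to 46.0), with 34.4 CPM in the compact, 18.8 CPM in the Sfn and Nefl and 0 UMIs in the Lefty1 and Dnd1 cluster cells. Tet1, which oxidises methylcytosine, had 47.3 against 19.6 CPM, and Gadd45a 57.4 against 12.7 CPM. The maintenance genes Dnmt1 (53.5 against 50.3 CPM) and Uhrf1 (71.2 against 77.3 CPM) were near even. Chromatin regulators gave 1 of 11 higher, Jarid2 of the Polycomb complex (99.9 against 44.5 CPM, log2 ratio 0.91 without the Ftl1-type cells), and 1 lower, Hmga2.

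Tdh helped to choose the cells. The genes of glycine, serine and one-carbon metabolism around it gave no call: of 11 past the filter, 0 were at least 2-fold higher and 0 lower, which is near the shares over all genes (3.96% higher and 5.38% lower). Gcat, which takes the next step after Tdh from threonine to glycine, had 104 CPM in the 85 cells and 98.4 CPM in the other EB cells (ratio 1.06, 0.921 to 1.21). Gldc, which cleaves glycine, had 58.3 against 32.8 CPM (ratio 1.78, 1.47 to 2.14), the highest of the list. Of 11 glycolysis genes, 1 was higher and 1 lower. Ldha, lactate dehydrogenase, had 0, 8.65 and 40.1 UMIs per 10000 in the 85 cells, against 0.844, 28.3 and 131 in the other EB cells. Its sums were 1108 and 2998 CPM (ratio 0.370, 0.355 to 0.385), with 1071 CPM in the compact, 1524 CPM in the Sfn and Nefl and 798 CPM in the Lefty1 and Dnd1 cluster cells. Pdk1, the kinase that holds pyruvate back from the mitochondria, was higher (78.9 against 18.8 CPM, ratio 4.19, 3.53 to 4.95). Aldoa (1096 against 1545 CPM), Eno1 and Pkm were not past the limit.

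Adhesion genes showed the mesenchymal side lower and the epithelial side near the limit. Of 8 past the filter, 4 were at least 2-fold lower, against 5.38% of all genes. They were Cdh2 (N-cadherin, 8.61 against 68.3 CPM), Vim (61.7 against 413 CPM), Fn1 (148 against 692 CPM) and Zeb2. Cdh1 (E-cadherin) had 40.2 against 21.7 CPM (ratio 1.85, 1.46 to 2.31) and Epcam 219 against 116 CPM (ratio 1.89, 1.72 to 2.08). Cldn7, a tight junction gene, was just past the limit in the 85 cells (95.6 against 47.8 CPM), but the compact cluster cells had 46.4 CPM, no more than the other EB cells. Of 5 stem cell surface genes past the filter, Alpl, the alkaline phosphatase used to stain ES cells, was higher (66.5 against 28.04 CPM). Pecam1, a surface protein of ES cells as well as endothelium, had 6.22 against 0.926 CPM and was highest in the compact cluster cells (9.61 CPM).

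Proliferation and stress genes were near those of the other EB cells. Of 10 S phase genes 1 was higher (Ung, 177 against 88.4 CPM), of 10 G2 and mitosis genes 1 was lower (Plk1, 47.3 against 95.8 CPM), and 0 of 8 p53 targets and 0 of 5 immediate early and heat shock genes past the filter were called. Myc was lower (9.08 against 20.5 CPM), and Mycn was not past the limit (118 against 69.7 CPM). Of 10 imprinted genes past the filter 6 were at least 2-fold lower (5.38% over all genes) and 0 higher (3.96%). Peg3 was among the lower ones (68.8 against 269 CPM), while Snrpn (350 against 297 CPM) and Meg3 (352 against 440 CPM) were not past the limit. Genes of the 2-cell-like state were scarce, and 0 of 8 listed passed the filter. Summed over the list, the level was 9.56 CPM in the 85 cells against 1.502 CPM in the other EB cells. The compact cluster cells had 15.2 CPM. These sums rest on few cells, since 4 of the 85 cells and 2.73% of the other EB cells held a UMI of the list. The 6 UMIs of Zscan4f, whose copies in the Zscan4 family are hard to tell apart, all lay in 1 cell.

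Promoters could be shown for a few of these genes. RefSeq promoters (GRCm38.p6, 250 bases before to 50 after the first listed start) were matched for 3 of the 4 rule genes, 10 of the 15 genes named as higher and 10 of the 14 naive genes. They were searched on both strands for the octamer ATGCAAAT, ESRRB's TCAAGGTCA, the KLF motif GGGTGTGG, the SOX motif AACAAAG and the STAT motif TTCCNNGAA, which do not contain each other. Of all 32851 promoters, 1.74% held the octamer, 0.423% the ESRRB, 3.56% the KLF, 5.85% the SOX and 4.81% the STAT motif. A match to any of them was found in 1, 3 and 1 of the matched promoters of the 3 groups. The promoters of Zfp42 (chr8:43306960-43307259, minus strand) and Chchd10 (chr10:75932880-75933179, plus strand) are printed because they were the ones with an octamer, the letters that POU5F1 and its relatives bind. Capitals mark the octamer at position 65 and the KLF motif at position 176 of Zfp42, both read from the opposite strand, and the octamers at positions 168 and 181 of Chchd10, counted from 1 at the 5′ end.
Zfp42: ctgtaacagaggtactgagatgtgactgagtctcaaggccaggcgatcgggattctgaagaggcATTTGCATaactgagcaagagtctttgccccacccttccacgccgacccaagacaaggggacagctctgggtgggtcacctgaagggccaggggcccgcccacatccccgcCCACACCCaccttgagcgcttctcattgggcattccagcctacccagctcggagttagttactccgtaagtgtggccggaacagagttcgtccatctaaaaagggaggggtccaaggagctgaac
Chchd10: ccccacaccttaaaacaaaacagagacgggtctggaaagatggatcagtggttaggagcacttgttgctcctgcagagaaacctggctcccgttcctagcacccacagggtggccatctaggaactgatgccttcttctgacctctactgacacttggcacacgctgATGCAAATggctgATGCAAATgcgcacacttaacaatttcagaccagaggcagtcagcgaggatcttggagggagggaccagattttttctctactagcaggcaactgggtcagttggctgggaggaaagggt
The Zfp42 level was 262 CPM in the 85 cells and the Chchd10 level 580 CPM, against 5.51 and 136 CPM in the other EB cells. A match describes the letters only.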

How the data were processed

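The authors deposited unfiltered tables of raw UMI counts for 33456 genes in 737280 barcodes per library, with mm10 as the build, per the submitters' processing notes. Not given in the sources used here were the aligner, the counting program, the annotation and the library chemistry. The minimum of 6172 UMIs is 10% of the 99th percentile of the 3000 largest EB barcodes. The 85 cells, the gene lists and the rules were chosen with earlier results of these data known.

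UMIs were summed per group and scaled to CPM, and ratios are sums of the 85 cells over sums of the other EB cells. A count of 0 was set at 3 counts for a bound, and called means at least 2-fold. Named genes are, in each direction, the 15 with the largest ratio among those with a mean of at least 10 CPM, at least 100 CPM in the higher group and a UMI in 25% of the 85 cells (higher) or 10% of the other EB cells (lower), leaving out rule genes, mitochondrial genes and unnamed models, then the list genes. Genes outside the rule (Mid1, Gm10116, Stat3 within the compact cluster, and the germline and single-cell genes of the closing section) were chosen after their values were seen. One listed gene had no row in the tables, and some listed genes are counted but not reported here by name. Clustering used counts scaled to 10000 per cell, 2000 variable genes, 30 components, 15 neighbours, resolution 1 and seed 1 (scanpy 1.11.5, leidenalg 0.10.2, Python 3.11.15). TMM factors came from edgeR 4.0.16 (R 4.3.3). Coordinates are from GENCODE M21 (361 of 361 genes matched by identifier). The ratio and interval calculation was tested on simulated data. Cells of 1 suspension are not replicates, and fewer transcripts of a gene per cell and fewer cells with it are not separated by a sum.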

Additional observations from a re-analysis of the deposited data

Results flagged for a closer look

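Naive-scored barcodes also appeared outside the cells analysed. Among the 142 EB barcodes left out for more than 10% mitochondrial UMIs, 8 had a score at or above the lowest of the 85 cells (5.63%, 2.46% to 10.8%). In the EB cells that share was 4.53%, fixed by the rule. Their median depth was 7195 UMIs, and in sum these 8 had 183 CPM of Zfp42, 349 CPM of Tdh and 1628 CPM of Dppa5a. Among 775 YS cells, 15 reached the same score (1.94%, 1.09% to 3.17%). All 15 held Klf2 UMIs, 1 held Zfp42, 1 held Tdh and 0 held Utf1 or Sox2, so in YS the score was met through Klf2, which is also a gene of vessel and blood cells.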

How the results depend on the processing

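Besides its main value, each count was computed under 18 alternatives, of which the 2 that change which of the 85 cells enter, and the clustering alternatives, were chosen after seeing the data. No paired analysis was possible because there is 1 library per source. Genes at least 2-fold lower numbered 548 with the top 50 cells, 230 with the top 120, 926 at a mean of at least 2 CPM, 86 at 50 CPM and 550 with the compact cluster cells alone (357 in the main comparison). Genes at least 2-fold higher numbered 864 at 2 CPM and 48 at 50 CPM (263). Naive genes higher were 5 with the top 50 cells, 9 at 2 CPM, 0 at 50 CPM and 6 in the compact cluster cells alone (2). The primed gene called higher was lost (0) without Utf1 in the score, with the top 50 cells, at 50 CPM and in the compact cluster cells alone. Streak genes lower were 6 at 50 CPM (12), and hemangiogenic genes lower 7 at 2 CPM and 1 at 50 CPM (3). Filters change how many genes are compared; otherwise the cause was not tested. Cldn7 turned to a log2 ratio of -0.040 in the compact cluster cells alone. Of 2772 ratios of 154 named genes, 383 moved and 79 called values came under 2-fold. TMM factors shifted ratios by -0.04. Changed rules shared 71 to 85 of the 85 cells (the top 50 cells, by construction, 50). Other clusterings put 51 to 68 of the 85 cells with the compact cluster. That cluster then had 57 cells with seed 2, 79 at resolution 0.6 or 1.5 and 145 with 1000 variable genes. The larger ones were thus made up less of the 85 cells. Depth limits the naive factors: Esrrb rested on 24 UMIs.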

Other observations

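The following genes, several of them known from the germ line or the egg, were chosen after their values were seen. Apart from Dazl, which is on the germ cell list, they were on no list. They stand as single values and not as a theme. Morc1, which germ cells need to silence transposons, had 33.5 CPM in the 85 cells and 0.206 CPM in the other EB cells (ratio 163, 83.4 to 354), and was seen in 51.0% of the compact cluster cells and 0 of the 18 Sfn and Nefl cluster cells. Tdrd12, of the piRNA pathway, had 25.3 CPM in the 85 cells (39.2 CPM in the compact cluster cells) against 0.535 CPM in the other EB cells. Tex19.1 had 43.0 CPM (69.7 CPM in the compact cluster cells) against 1.73 CPM, with 52.2% of its UMIs in 5 of the 85 cells. Dazl, an RNA-binding protein of germ cells, had 9.56 CPM (13.6 CPM in the compact cluster cells) against 0.288 CPM. Ooep, a protein of the egg cortex, had 79.4 CPM against 2.96 CPM in the other EB cells and was seen in 82.4% of the compact cluster cells, against 27.8% of the Sfn and Nefl and 18.8% of the Lefty1 and Dnd1 cluster cells. Rpl39l, a ribosomal protein gene of testis and ES cells, had 29.2 CPM (46.4 CPM in the compact cluster cells) against 0.226 CPM, and Spp1, the secreted osteopontin, 44.5 CPM (67.3 CPM in the compact cluster cells) against 1.75 CPM.

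Single cells carried several sums. The cell of rank 85, with 33396 UMIs, had 0 UMIs of Zfp42, Tdh and Sox2 but 36 of Rhox5, 24 of H19, 12 of Esx1, 72 of Krt18 and 93 of Fabp3, which made 68.6% of the H19 and 53.1% of the Fabp3 UMIs of the 85 cells. Rhox6 and Rhox9, paralogs of an X-linked homeobox cluster, lay mostly in a few cells: the cell of rank 30 held 82 and 72 UMIs of them, of 207 and 183 in all 85 cells. Of 26 Xist UMIs, 23 lay in 1 cell, of rank 49.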
